A study of Mus musculus with 9 samples.

Results

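The genes described here are 30 cell cycle genes, 11 of DNA replication and S phase entry and 19 of mitosis, read from the rows of a deposited expression table whose symbol is in a fixed list of names. All 30 symbols matched exactly 1 row each, out of 24102 rows, and all 30 passed the filter on low values described below. The RNA came from mouse embryonic limbs at E12.5 and was taken from cells sorted for GFP. Controls are Shox2(Cre/+);Rosa(mTmG) and mutants are Shox2(Cre/-);Rosa(mTmG), so both genotypes carry Cre at the Shox2 locus and the mTmG reporter, and the controls are not wild type. In the reporter, Cre switches a red membrane protein to a green one and the switch is inherited, so the sorted cells are those that express the homeobox gene Shox2, needed for the proximal limb skeleton, or descend from such cells. The series lists 9 samples, namely 3 controls, 4 mutants and 2 wild-type whole limbs, and the table used here has 6 columns, 1 control and 1 mutant for each of litters 1, 2 and 3. Litter 1 has 2 mutant samples and 1 mutant column, and which of these samples it holds is not stated. Whole limbs were not analysed here. How many embryos were pooled per sample is not stated either.

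A dividing cell passes through a gap phase, copies its DNA in S phase, passes through a further gap and divides in mitosis. Transcripts of the replication machinery are made mostly around S phase entry, under E2F factors, and transcripts of the mitotic machinery later, in G2 and M, under the DREAM and MuvB complexes and B-Myb. Limb bud mesenchyme of this stage grows by division, and its condensing cartilage leaves the cycle as it matures. In bulk RNA a lower level of such a transcript can come from fewer cells in that phase or from less RNA per cell, and these cannot be told apart here.

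Levels are in FPKM, fragments scaled to transcript length, which allows genes to be compared per length, and between samples by Cuffdiff's geometric normalisation. The file headers state this normalisation above each litter. Whether the litters share one scaling is not stated, so differences in level between litters carry that limit. A log2 ratio is log2(FPKM + 1) in the mutant minus that in the control of the same litter. Mutants were tested against controls with limma over all 12314 rows with 1 FPKM or more in at least 3 columns, with Benjamini-Hochberg adjustment and a threshold of 0.05.

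Shox2 itself was at 217, 222 and 210 FPKM in the controls and at 16.7, 18.3 and 96.9 FPKM in the mutants of litters 1, 2 and 3, lower in each litter and least so in litter 3. All 9 limb mesenchyme markers looked for were tested. Leaving out Shox2, which is on that list, the other 8 summed to 438, 606 and 524 FPKM in the controls and to 456, 676 and 655 FPKM in the mutants of litters 1, 2 and 3, higher in the mutant of each litter. The sum of red cell markers (4 of 8 tested), mostly the embryonic globins, was as high, from 328 to 592 FPKM in the controls and from 229 to 713 FPKM in the mutants, higher in the mutant of litter 1 and lower in that of litters 2 and 3. Nerve and glia markers (8 of 8 tested) summed to between 54.2 and 109 FPKM in the controls and between 75.3 and 124 FPKM in the mutants, and muscle markers (5 of 8 tested) to between 27.3 and 72.3 and between 46.3 and 48.2 FPKM. Both sums were higher in the mutant of litters 1 and 3 and lower in that of litter 2. The summed surface ectoderm markers (5 of 9 tested) ran from 23.2 to 43.9 FPKM in the controls and from 16.6 to 24.0 FPKM in the mutants, and the endothelial ones (4 of 7 tested) from 6.44 to 16.6 and from 5.54 to 5.58 FPKM, each lower in the mutant of all 3 litters. Leukocyte markers (3 of 7 tested) summed to between 12.0 and 16.0 FPKM in the controls and between 10.8 and 21.6 FPKM in the mutants, higher in the mutant of litter 2 only, and Ptprc, Tyrobp and Fcer1g among them were listed at 0 in the control of that litter. The part of these other cells in the results below was not tested. The first principal component, with 61.5% of the variance, set litter 1 apart from the other litters, and the second, with 22.2%, set the control of litter 2 apart from the other columns. In litter 2 the mix of sexes differed between the columns: the Y-linked Eif2s3y was at 23.9 FPKM in the control and listed at 0 in the mutant. Xist, made in female cells, was at 34.6 FPKM in that control and 178 FPKM in that mutant. In control and mutant it was at 12.1 and 36.8 FPKM in litter 1 and at 73.0 and 68.4 FPKM in litter 3. For these reasons values are given litter by litter.

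The promoters of the most abundant members show the elements by which these gene groups are usually recognised. Of the 30 members, 24 had an entry in the RefSeq promoter table of GRCm38.p6, which covers 250 bases before to 50 bases after the start. The expression values rest on the mm9 build, so the coordinates below belong to the promoter table and not to the expression table. The motifs searched on both strands were the CCAAT box bound by NF-Y (CCAAT), the cell cycle homology region or CHR (TTTGAA), and E2F words (TTTCGCGC, TTTGGCGC or TTTCCCGC). An E2F word can overlap another on the opposite strand. The upstream stretches of the 2 most abundant replication members and the 2 most abundant mitosis members with an entry follow, 5′ to 3′ on the strand of the gene and ending before any annotated transcript start, with every such match in capitals.
Mcm6, GRCm38.p6 chr1:128359706-128359955, minus strand: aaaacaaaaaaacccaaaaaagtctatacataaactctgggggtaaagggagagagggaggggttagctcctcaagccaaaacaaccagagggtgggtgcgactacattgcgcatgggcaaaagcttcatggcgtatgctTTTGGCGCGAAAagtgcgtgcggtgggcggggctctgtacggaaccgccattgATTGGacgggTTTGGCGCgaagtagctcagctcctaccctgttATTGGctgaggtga
Mcm5, GRCm38.p6 chr8:75109259-75109508, plus strand: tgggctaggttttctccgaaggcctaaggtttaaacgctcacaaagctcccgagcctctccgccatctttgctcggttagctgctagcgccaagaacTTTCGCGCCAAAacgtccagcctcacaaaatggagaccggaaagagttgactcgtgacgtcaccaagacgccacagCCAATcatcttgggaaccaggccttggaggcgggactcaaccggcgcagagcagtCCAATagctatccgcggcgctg
Top2a, GRCm38.p6 chr11:99024190-99024439, minus strand: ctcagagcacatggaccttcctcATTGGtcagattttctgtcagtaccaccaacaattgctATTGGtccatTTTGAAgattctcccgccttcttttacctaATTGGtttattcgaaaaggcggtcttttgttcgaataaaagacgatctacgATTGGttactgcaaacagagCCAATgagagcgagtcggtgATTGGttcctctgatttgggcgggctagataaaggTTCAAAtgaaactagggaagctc
Ube2c, GRCm38.p6 chr2:164769679-164769897, plus strand: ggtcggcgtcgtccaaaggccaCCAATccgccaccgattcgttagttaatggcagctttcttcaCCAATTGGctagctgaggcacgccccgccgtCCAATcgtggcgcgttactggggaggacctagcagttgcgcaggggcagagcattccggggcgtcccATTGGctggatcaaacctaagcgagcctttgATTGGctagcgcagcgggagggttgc

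Mitosis members were rich in CHR and CCAAT matches and replication members in E2F words. Both a CCAAT box and a CHR were found in 11 of 15 mitosis promoters (73.3%), in 1 of 9 replication promoters (11.1%) and in 6.95% of all 32851 promoters. An E2F word was found in 4 of 9 replication promoters (44.4%), namely those of Mcm3, Mcm5, Mcm6 and Cdc6, in 1 of 15 mitosis promoters (6.67%), that of Cdk1, and in 1.84% of all promoters. The CHR of Ube2c lies beyond the printed stretch. A match is a stretch of letters and no measure of binding in these cells.

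All 30 genes were expressed in every column, and their levels spanned a wide range. The highest mean over the 6 columns was that of Top2a at 124 FPKM, followed by Mcm6 at 109 FPKM and Ube2c at 104 FPKM. The lowest were Cdc6 at 6.63 FPKM, Ccne2 at 11.3 FPKM and Cenpf at 12.9 FPKM.

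**Figure D1:**
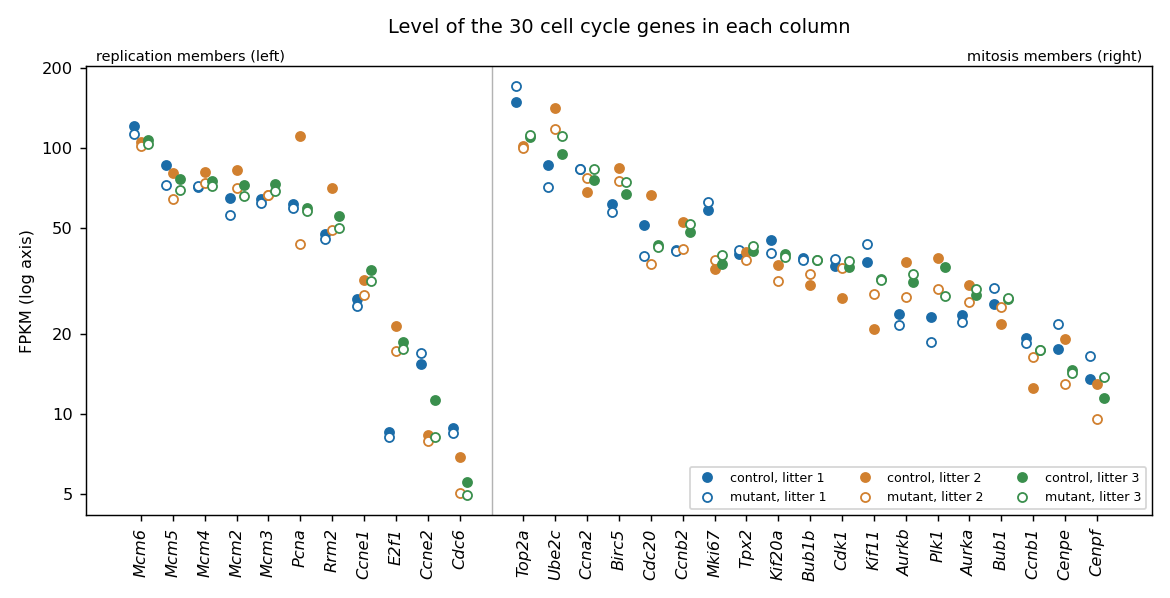
FPKM (log axis) of each of the 30 genes in the 6 columns, with replication members on the left and mitosis members on the right, each ordered by mean level; filled points are controls, open points mutants, and colours are litters. Levels run from under 10 FPKM for Cdc6 to over 100 FPKM for Top2a, and the litters lie apart for genes such as E2f1 and Mki67.

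No member differed between mutants and controls past the threshold. Limma called 0 of 12314 rows (0.0%), with 167 rows lower and 272 higher at an unadjusted p under 0.05 (1.36% and 2.21%), and 0 of the 30 members reached even the unadjusted level. A limma fit that took litter as a block also called 0 rows (0.0%), and 2 members, Plk1 and Cdc20, were lower at an unadjusted p under 0.05, where 6.29% of rows were. No member was higher at that level, where 5.34% of rows were. The results that follow are therefore directions and sizes within litters.

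The replication members lay below their control in nearly every litter. In the values as deposited 9 of 11 were lower in 3 of 3 litters and 0 were higher in 3 of 3, against 22.3% and 15.7% of all tested rows. Their median log2 ratio was -0.06 in litter 1, -0.22 in litter 2 and -0.13 in litter 3, where all tested rows had medians of -0.07, -0.03 and 0.00. In litter 1 the replication members thus lay no lower than the table as a whole. The count depends on the scaling: with each column centred on its median row, 4 of 11 were lower in 3 of 3 litters against 18.8% of rows, and with quantile normalisation 3 of 11 against 19.3%. In litter 3 all 11 were lower under each of these scalings, in litter 2 it was 11, 10 and 8, and in litter 1 it was 9, 4 and 3, in the order deposited, centred and quantile-normalised. Counted over litters 1 and 3 alone, in the values as deposited, 9 of 11 were lower in both and 0 higher in both, against 34.2% and 24.9% of all rows. This count too depends on the scaling. In litter 1 only 4 were lower with centring and 3 with quantile normalisation, so no more can be lower in both.

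The licensing genes, which load the replicative helicase onto origins before S phase, held small differences. Mcm5, a subunit of that helicase, was at 86.2, 80.5 and 76.9 FPKM in the controls and at 73.0, 64.5 and 69.7 FPKM in the mutants of litters 1, 2 and 3. Every mutant lay below every control, the only replication member of which this was true, against 5.03% of all rows, and the log2 change was -0.23 (SE 0.13, limma adjusted p = 1.00). Mcm2, another subunit, was at 65.0, 82.6 and 72.7 FPKM in the controls and at 56.2, 70.9 and 65.9 FPKM in the mutants. Each mutant was below its own control, with log2 ratios of -0.21, -0.22 and -0.14, while the groups overlapped.

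The other helicase subunits differed less. Mcm6 was at 121, 105 and 108 FPKM in the controls and at 113, 102 and 103 FPKM in the mutants, a log2 change of -0.07 (SE 0.14). Mcm4 was at 71.6, 81.1 and 75.1 FPKM in the controls and at 71.9, 74.2 and 72.0 FPKM in the mutants, level in litter 1 and lower in litters 2 and 3. Mcm3 had log2 ratios of -0.04, -0.01 and -0.08. With quantile normalisation the changes of Mcm3, Mcm4 and Mcm6 turned to 0.01, 0.01 and 0.01, so for these 3 no direction can be given. Cdc6, which brings the helicase to origins, had log2 ratios of -0.05, -0.38 and -0.14 at levels between 4.95 and 8.86 FPKM.

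The synthesis genes held the largest change of the replication members, and it came from litter 2. Pcna, the sliding clamp of DNA polymerases, was at 61.9, 111 and 59.4 FPKM in the controls and at 59.6, 43.7 and 58.0 FPKM in the mutants. The control of litter 2 was far above all other columns and the mutant of litter 2 below them, and the log2 ratios were -0.05, -1.32 and -0.03. Its log2 change of -0.47 (SE 0.27, limma adjusted p = 1.00) became -0.18 without that control and -0.04 without both columns of litter 2. Pcna also has pseudogenes named after it in the annotation, 2 of them, as have Ccnb1 and Ccnb2, 1 each, so reads may be shared between copies. Rrm2, the small subunit of ribonucleotide reductase, was at 47.5, 70.6 and 55.6 FPKM in the controls and at 45.5, 49.3 and 49.9 FPKM in the mutants, again with the highest value in the control of litter 2. Its log2 change was -0.24 (SE 0.17, limma adjusted p = 1.00).

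The regulators of S phase entry lay at different levels in the litters. E2f1, a transcription factor that switches on replication genes, was at 8.56 and 8.19 FPKM in the control and mutant of litter 1 and between 17.2 and 21.5 FPKM in the other 4 columns. Its mutant was below its control in each litter, with log2 ratios of -0.06, -0.30 and -0.08. Ccne1, the cyclin partner of Cdk2 at S phase entry, had log2 ratios of -0.09, -0.19 and -0.13. Ccne2, its paralogue, had 0.13, -0.06 and -0.43, which share no direction.

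**Figure D2:**
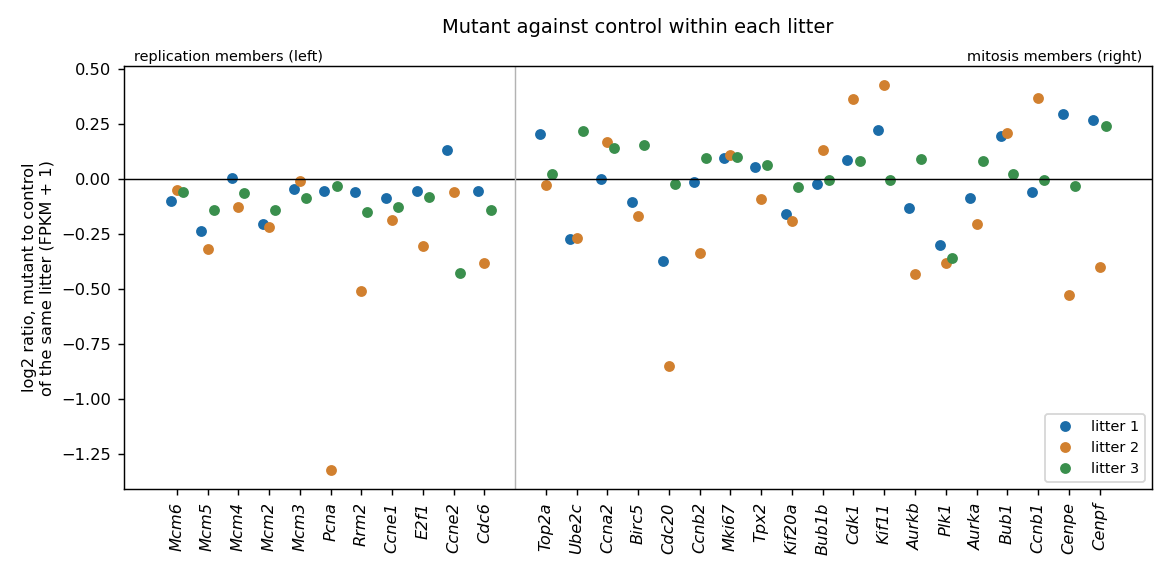
Log2 ratio of mutant to control within litters 1, 2 and 3 for each of the 30 genes, on log2(FPKM + 1), with the line at 0 marking equal levels. Replication members (left) lie mostly below 0, with Pcna of litter 2 lowest at -1.32, and mitosis members (right) lie on both sides.

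The mitosis members as a list shared no direction. Of 19, 3 were lower in 3 of 3 litters and 3 higher in 3 of 3, or 15.8% in each direction, against 22.3% and 15.7% of all tested rows. With centring 3 were lower and 5 higher, against 18.8% and 18.95% of rows, and with quantile normalisation 3 and 6, against 19.3% and 18.4%. Their median log2 ratio was -0.01 in litter 1, -0.17 in litter 2 and 0.06 in litter 3. Those lower in each litter were Plk1, Cdc20 and Kif20a, and those higher in each litter were Cdk1, Bub1 and Mki67.

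Cyclins and Cdk1 drive entry into mitosis. Cdk1, the mitotic kinase, was at 35.9, 27.3 and 35.7 FPKM in the controls and at 38.2, 35.4 and 37.8 FPKM in the mutants. The mutant was above its control in each litter, by log2 ratios of 0.09, 0.36 and 0.08, and the low value was the control of litter 2. Ccna2, cyclin A, which acts in S phase as well as in G2, was at 83.7, 68.5 and 75.7 FPKM in the controls and at 83.5, 77.1 and 83.5 FPKM in the mutants, level in litter 1 and higher in litters 2 and 3.

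The B-type cyclins did not share a direction. Ccnb2 was at 41.3, 52.8 and 48.5 FPKM in the controls and at 40.9, 41.6 and 51.9 FPKM in the mutants, with overlapping groups. Ccnb1 had log2 ratios of -0.06, 0.37 and 0.00, so its only sizeable difference lay in litter 2.

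Among the mitotic kinases Plk1 differed by nearly the same amount in each litter. Plk1, which acts in centrosome maturation, spindle assembly and exit, was at 23.2, 38.6 and 35.7 FPKM in the controls and at 18.6, 29.4 and 27.7 FPKM in the mutants. Relative to the control of its own litter the mutant level differed by -19.7%, -23.9% and -22.5%. The groups overlapped because litter 1 was low in both genotypes. The log2 change was -0.35 (SE 0.26, and 0.10 in the block fit), and its adjusted p was 1.00 in limma and 0.318 in the block fit. Aurka and Aurkb, the Aurora kinases of the centrosome and of the chromosomal passenger complex, were lower in litters 1 and 2 and higher in litter 3, with log2 ratios of -0.09, -0.20 and 0.08 and of -0.13, -0.43 and 0.09. Bub1, a kinase of the spindle checkpoint, was higher in each litter, with log2 ratios of 0.20, 0.21 and 0.02, and its partner Bub1b had -0.02, 0.13 and -0.01.

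Genes of anaphase onset did not share a pattern over the litters. Cdc20, the activator of the anaphase-promoting complex, was at 51.2, 66.9 and 43.2 FPKM in the controls and at 39.3, 36.7 and 42.5 FPKM in the mutants. Every mutant lay below every control, as did 5.03% of all rows, but the log2 ratio was only -0.03 in litter 3, where those of litters 1 and 2 were -0.37 and -0.85. Over all columns its change on the log2 scale was -0.42 (SE 0.19), with adjusted p-values of 1.00 in limma and 0.410 in the block fit. Ube2c, the ubiquitin-conjugating enzyme of the same complex, was at 86.7, 142 and 95.5 FPKM in the controls and at 71.6, 118 and 111 FPKM in the mutants, lower in litters 1 and 2 and higher in litter 3.

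Spindle and kinetochore genes differed mostly in litter 2. Kif20a, a kinesin of the central spindle and cytokinesis, was at 45.05, 36.3 and 40.1 FPKM in the controls and at 40.2, 31.7 and 39.0 FPKM in the mutants, each mutant below its control, with overlapping groups. Birc5, survivin, a member of the chromosomal passenger complex, was at 61.8, 84.7 and 67.2 FPKM in the controls and at 57.3, 75.2 and 75.0 FPKM in the mutants, lower in litters 1 and 2 and higher in litter 3. Kif11, the kinesin that separates spindle poles, had log2 ratios of 0.22, 0.43 and -0.01. The kinetochore genes Cenpe and Cenpf had 0.30, -0.53 and -0.03, and 0.27, -0.40 and 0.24. Tpx2, a spindle assembly factor, was steady, with log2 ratios of 0.05, -0.09 and 0.06 around a control mean of 40.5 ± 0.540 FPKM (SD, n = 3).

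The chromosome genes used most often as proliferation markers were level or slightly higher. Top2a, the topoisomerase that untangles sister chromatids, was at 149, 102 and 110 FPKM in the controls and at 171, 100.3 and 112 FPKM in the mutants. Litter 1 was the highest in both genotypes, and the groups overlapped. Mki67, the Ki-67 antigen of cycling cells, had log2 ratios of 0.10, 0.11 and 0.10, at 58.8, 35.2 and 36.8 FPKM in the controls and 62.9, 38.0 and 39.5 FPKM in the mutants. Its difference was small and even while the litters lay far apart, and its log2 change was 0.10 (SE 0.28, limma adjusted p = 1.00). In the block fit the SE was 0.10.

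Set against each other within a column, mitosis members took a larger part relative to replication members in the mutant of each litter, a measure that multiplying a column by a constant leaves unchanged. The sum of FPKM over the 19 mitosis genes divided by that over the 11 replication genes was 1.51, 1.32 and 1.40 in the controls and 1.62, 1.52 and 1.58 in the mutants of litters 1, 2 and 3. Each mutant was above its own control. The means were 1.41 ± 0.0973 and 1.57 ± 0.0536 (SD, n = 3), and the groups met, with the highest control and the lowest mutant both at 1.515. Without Pcna and Cdc20, the members with the largest differences in litter 2, the ratios were 1.60, 1.46 and 1.48 in the controls and 1.74, 1.58 and 1.68 in the mutants, again higher in each mutant, with overlapping groups. Without Pcna alone the ratios were 1.70, 1.585 and 1.56 in the controls and 1.82, 1.65 and 1.76 in the mutants. In litter 2 the ratio then rose from 1.585 to 1.65, where with all members it rose from 1.32 to 1.52. As a median over members rather than a sum, the mitosis log2 ratio exceeded the replication log2 ratio by 0.04, 0.05 and 0.19 in litters 1, 2 and 3, a mean of 0.09 ± 0.08 (SD, n = 3). As a mean over members the excess was 0.06, 0.21 and 0.18, a mean of 0.15 ± 0.08 (SD, n = 3). It was above 0 in each litter by both measures, largest in litter 3 for the median and in litter 2 for the mean. Without Mki67, Top2a and Ccna2 the excess of the median was 0.01, 0.02 and 0.17, a mean of 0.07 ± 0.09 (SD, n = 3). It was thus close to 0 in litters 1 and 2. Without Ccne1, Ccne2 and E2f1 the excess was 0.04, 0.10 and 0.17, a mean of 0.11 ± 0.07 (SD, n = 3).

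**Figure D3:**
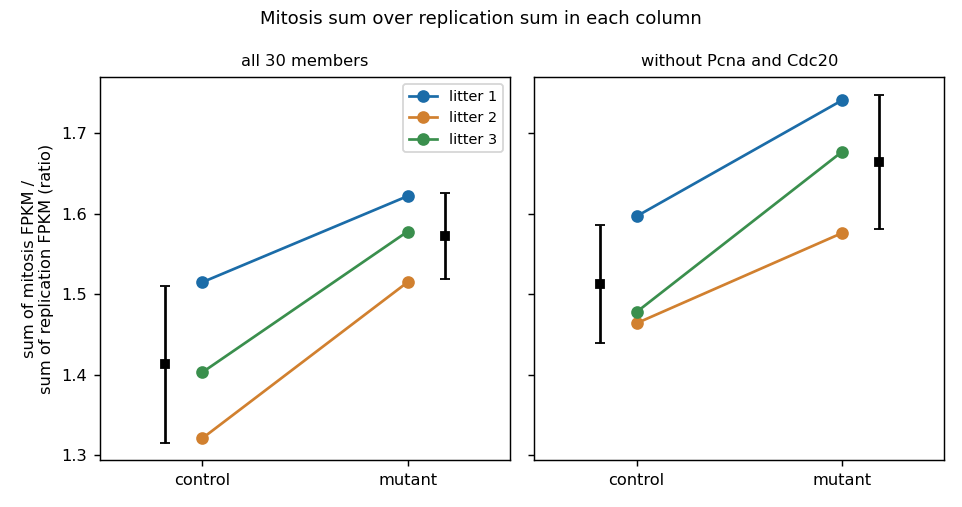
Sum of FPKM over the mitosis members divided by that over the replication members in each column, for all 30 members (left) and without Pcna and Cdc20 (right). Lines join the control and mutant of a litter, and squares with bars are means ± SD over the 3 columns. All lines slope upward from control to mutant, from 1.32 to 1.52 in litter 2 on the left, while the groups meet on the left and overlap on the right.

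Cell cycle genes outside the 30 showed a like split. Of 42 other replication genes, all tested, 19 were lower in 3 of 3 litters and 0 higher in 3 of 3, with medians of -0.07, -0.17 and -0.07 in litters 1, 2 and 3. With centring it was 15 lower and 1 higher, and with quantile normalisation 14 and 1. In litter 1 these genes lay about level with all tested rows, whose median there was also -0.07. There 21 of 42 were lower with centring and 22 with quantile normalisation. Of 57 other mitosis genes 55 were tested, of which 9 were lower and 10 higher in 3 of 3 litters, with medians of 0.02, -0.01 and 0.02. With centring it was 5 lower and 12 higher. With quantile normalisation it was 5 and 11. Over all tested rows the shares lower and higher were 22.3% and 15.7% as deposited, 18.8% and 18.95% with centring, and 19.3% and 18.4% with quantile normalisation. None of these genes passed in limma.

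The replication genes of that list with the smallest unadjusted p were all lower in each litter without overlap between groups. They were picked by p, so this is no separate evidence. Of the 42 genes, 7 were lower without overlap and 0 higher, against 5.03% and 4.22% of all rows. Mcm7, a further subunit of the replicative helicase, was at 37.2, 61.0 and 42.8 FPKM in the controls and at 32.8, 28.8 and 35.0 FPKM in the mutants. Its log2 ratios were -0.18, -1.06 and -0.28, by far the largest in litter 2. Chaf1b, a subunit of the chromatin assembly factor that follows the fork, was at 24.2, 27.6 and 25.3 FPKM in the controls and at 18.8, 19.9 and 22.3 FPKM in the mutants. Ung, a DNA repair glycosylase, and Tk1, thymidine kinase, had log2 changes of -0.35 (SE 0.16) and -0.27 (SE 0.14). Among the other mitosis genes the smallest p-values belonged to Ect2 and Tmpo, higher in each litter, with log2 changes of 0.29 (SE 0.15) and 0.27 (SE 0.14), to Rangap1, lower in each litter at -0.18 (SE 0.13), and to Cks2, at 0.30 (SE 0.24) and higher in litter 2 only.

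A list of G1 regulators, which act before S phase entry, and of cell cycle inhibitors included 2 inhibitors whose mutant values all lay above the controls. Both are named for their small p. Of 30 such genes 28 symbols were tested, with a median log2 change of -0.03, as against -0.04 for all rows. In 3 of 3 litters 8 were lower and 5 higher, against 22.3% and 15.7% of all rows. Without overlap 2 were higher and 1 was lower, the latter against 5.03% of rows. The lower one was Wee1, an inhibitor of entry into mitosis and not a G1 gene. The inhibitors Cdkn1c, the most abundant of the list, and Cdkn2d had log2 ratios of -0.12, 0.09 and 0.08, and of -0.03, -0.40 and 0.32. Cdkn1a had 0.20, 0.00 and 0.39. Cdkn2c, which encodes the Cdk4 and Cdk6 inhibitor p18, was at 3.16, 3.22 and 3.35 FPKM in the controls and at 4.43, 4.54 and 5.05 FPKM in the mutants. The groups lay apart, and the log2 change was 0.42 (SE 0.13), with adjusted p-values of 1.00 in limma and 0.320 in the block fit. Cdkn1b, which encodes the Cdk2 inhibitor p27, was at 19.5, 18.3 and 18.5 FPKM in the controls and at 21.9, 22.9 and 23.8 FPKM in the mutants, also without overlap, as 4.22% of rows were in this direction. The other genes with small p-values were Mycn, a Myc family factor, at 0.26 (SE 0.16) and higher in each litter, and Tfdp1, the dimer partner of E2F factors, at -0.27 (SE 0.19) and lower in each litter.

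**Figure D4:**
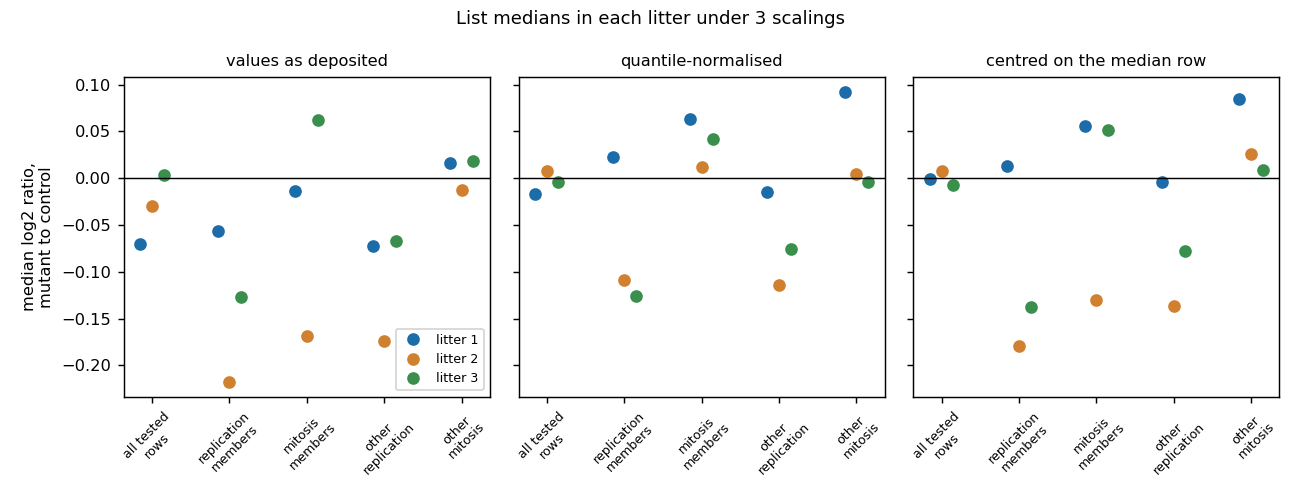
Median log2 ratio of mutant to control in each litter for all tested rows, the replication and mitosis members and the other replication and mitosis genes, with the values as deposited (left), quantile-normalised (middle) and centred on the median row (right). In litter 1 the replication median is -0.06 as deposited and 0.01 to 0.02 under the other scalings, while in litters 2 and 3 it is below 0 under each.

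Transcript length moved with these differences in litters 1 and 2. Across the 30 members the Spearman correlation between transcript length and log2 ratio was 0.60 in litter 1, 0.38 in litter 2 and 0.10 in litter 3, and across 11341 tested rows with a length it was 0.15, 0.29 and 0.03. These points share their 2 columns, so they are a description. Replication members have a median transcript of 3031 bases and mitosis members one of 3421 bases, but the lists differ in range. Lengths ran from 1518 bases (Pcna) to 4614 bases (Cdc6) for replication members. For mitosis members they ran from 1531 bases (Ccnb2) to 11130 bases (Cenpf), with Mki67 at 10061 bases. With the log2 change over all columns, length had a correlation of 0.54 across the 30 members and of 0.26 across the tested rows. The part of length in the difference between the lists was not tested. Length also moved with the difference between litters: over the 30 members the level in litter 1 relative to litters 2 and 3 had a correlation of 0.68 with length, with the long transcripts of Mki67 and Top2a higher in litter 1 by log2 differences of 0.69 and 0.59, and E2f1 and Plk1 at -1.07 and -0.63.

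**Figure D5:**
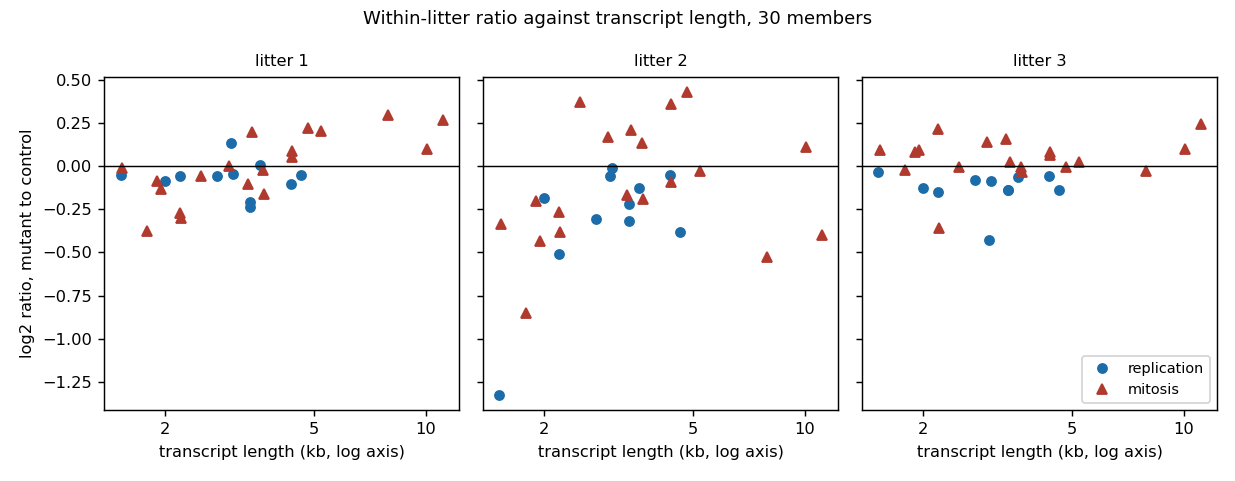
Log2 ratio of mutant to control against transcript length (log axis, in kilobases) for the 30 members in litters 1, 2 and 3, with replication members as circles and mitosis members as triangles. Longer transcripts tend to lie higher in litter 1, with a Spearman correlation of 0.60, and there is little such trend in litter 3, at 0.10.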

How the data were processed

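RNA of GFP-sorted limb cells was sequenced. Per the submitters' processing notes, TopHat and Cuffdiff were used against mm9. Their versions and the gene models are not given there. The values the authors deposited were taken as FPKM: per the file headers, Cuffdiff's geometric normalisation was applied, stated above each litter, and no unit is named there. Sums of FPKM per column ran from 347708 to 439109, and the read depth is unknown, so no counting error is given. A deposited list of gene symbols without values was not used.

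The test was limma (version 3.58.1, R 4.3.3, trend on mean level) on log2(FPKM + 1), mutant columns against control columns. It ran on the 12314 rows that reached 1 FPKM in 3 or more columns, with Benjamini-Hochberg adjustment. This scale understates the change of low genes. P-values measure the spread between these columns. Each SE is from the fit without the litter block unless stated, and so includes the spread between litters. The fit was tested on simulated data whose changed rows were given larger changes than any member showed, so that test does not cover changes of the members' size. Litter numbers in the descriptions pair the columns: deviations from the group means correlated at 0.873, 0.568 and 0.770 within litters 1, 2 and 3. Members, lists, alternatives and naming rule were all chosen with earlier results of these data known. Values in every column are given for the 4 replication and 6 mitosis members with the highest mean, the 3 of each with the smallest p and those going against their list in each litter; Mki67, E2f1 and the others were added after their values were seen, and up to 4 genes of each further list were named by p. Lengths are of the longest coding transcript in GENCODE M21.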

Additional observations from a re-analysis of the deposited data

How the results depend on the processing

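With litter as a replicate block 0 rows and 0 members were called. The list medians, 0.01 for mitosis and -0.15 for replication members, are the same with and without the block by construction. Each litter has 1 column of each group. The other filters on low values kept all members, so they also leave the medians and the excess unchanged. Column weights called 15 rows, and leaving out columns or litters called between 0 and 534, the highest without litter 2 in the block fit and 36 without litter 3. Members were called in none of the fits run, with a lowest adjusted p of 0.180 in limma. The count of replication members lower in each litter was 3 with quantile normalisation and 4 with centring, which was chosen after seeing the data. Mitosis members higher in each litter were then 6 and 5. Leaving out 1 litter gave 4 to 8 mitosis members lower and 4 to 6 higher in both others. Medians and the excess of mitosis over replication kept within 1 SD over litters under each alternative run for them. For the excess that SD was 0.08, nearly as large as the excess of 0.09, so the bound is wide. The excess was 0.05 without litter 3, 0.07 without Mki67, Top2a and Ccna2, and 0.15 as a mean over members. Column weights give no value within a litter.

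Of 480 alternative values of single members 430 kept their direction. Those with the litter block and with the other filters on low values equal the main value by construction. They are part of the 430 and are no check on direction. With quantile normalisation Mcm3, Mcm4, Mcm6 and Birc5 were at 0.0136, 0.0115, 0.00792 and 0.0398. With column weights Ccnb1, Bub1b, Cenpf, Kif11, Tpx2 and Top2a were at -0.0117, -0.0652, -0.0105, -0.0294, -0.0186 and -0.0435, and Birc5 and Ube2c at 0.12 and 0.18. Leaving out columns or litters, log2 changes ran from -0.17 to 0.037 for Aurka, -0.33 to 0.00235 for Aurkb, -0.14 to 0.0899 for Birc5, -0.072 to 0.0934 for Bub1b, -0.0707 to 0.22 for Ccnb1, -0.19 to 0.041 for Ccnb2, -0.45 to 0.0877 for Ccne2, -0.30 to 0.13 for Cenpe, -0.13 to 0.26 for Cenpf, -0.53 to 0.19 for E2f1, -0.0206 to 0.38 for Kif11, -0.0867 to 0.00765 for Mcm3, -0.13 to 0.33 for Mki67, -0.16 to 0.23 for Top2a, -0.0277 to 0.0572 for Tpx2 and -0.27 to 0.12 for Ube2c. The cause was not tested.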
